A study of Mus musculus with 7 samples.

Results

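Milk protein genes were examined in medullary epithelial cells of the mouse thymus, the stromal cells that show developing T cells the antigens of other organs. The genes are those that encode the main milk proteins, taken by name: 5 casein genes (Csn1s1, Csn1s2a, Csn1s2b, Csn2 and Csn3) together with Lalba and Wap, 7 genes in all. Of these, 6 had a probe set that names a single gene and were measured, among 19937 such genes on the arrays. The probe set of Lalba is annotated with a second gene, Trip12, so no value is given for Lalba. The 7 genes were chosen with earlier results of these data known. The reconSCID group (3 samples) came from mice of the NOD strain with the SCID mutation, which affects DNA-dependent protein kinase (DNA-PK). The reconRAG1KO group (4 samples) came from NOD mice with a null allele of RAG1 and is the control that the series names. All recipients were irradiated as pups of 2 to 4 days with 200 rad and received bone marrow into the peritoneum 6 h later, and their thymi were taken after 6 to 8 weeks. Sorting kept the epithelial cells with high MHC class II, and 6 µg of total RNA was labelled for each Affymetrix array. The labels call the samples biological replicates and give neither the sex, nor the marrow donor, nor the number of thymi behind each one, so p-values measure the spread between these 7 samples. Both strains lack mature lymphocytes of their own, and whether the thymocytes in each sample came from the transferred marrow was not measured.

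Caseins are the phosphoproteins that carry calcium phosphate in milk as micelles, and the mammary gland makes them under prolactin, which acts through its receptor, the kinase Jak2 and the transcription factor STAT5. Medullary epithelial cells transcribe such tissue-restricted genes at a low rate and in few cells, many of them through the regulator Aire, and Csn2 is among the antigens known to be induced by Aire in these cells. DNA-PK binds Aire, and the comparison asks how expression differs where DNA-PK is defective.

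The arrays did not form a single set. ReconSCID replicate 2 and reconRAG1KO replicate 4 stood apart. Their log2 values correlated at 0.972, those of the remaining 5 arrays at 0.976 to 0.990, and pairs across the 2 sets at 0.922 to 0.947. The labels name no batch, and each of these 2 array sets held both groups, so values are also given blocked by array set and inside either set. Array medians lay between 6.47 and 6.59 on the log2 scale and lower quartiles between 5.08 and 5.26. Markers of the sorted cell type were present: Aire averaged 10.63 ± 0.87 log2 intensity (SD, n = 3) in reconSCID and 11.20 ± 0.49 (SD, n = 4) in reconRAG1KO, and 0 of 12 markers of mature medullary epithelium lay below the lower quartile of every array. Probe sets differ in brightness for the same amount of RNA, so the levels below are compared between samples and not between genes.

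The sequences just before the transcription start are shown for the 2 milk protein genes of the 6 measured, Csn2 and Csn1s1, in which every reconSCID sample lay below every reconRAG1KO sample, as it did in 1.43% of all probe sets (2.09% had the opposite order). They are the 250 bases upstream of the start in RefSeq (GRCm38.p6), written 5′ to 3′ on the coding strand, with capitals at a match to TTCNNNGAA, the palindromic element that STAT5 recognises in casein promoters.
Csn2, minus strand, chr5:87699426-87699675: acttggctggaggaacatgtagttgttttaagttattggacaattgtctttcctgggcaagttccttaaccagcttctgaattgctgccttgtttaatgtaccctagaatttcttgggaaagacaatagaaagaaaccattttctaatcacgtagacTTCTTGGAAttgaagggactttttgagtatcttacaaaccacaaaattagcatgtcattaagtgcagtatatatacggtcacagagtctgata
Csn1s1, plus strand, chr5:87665958-87666207: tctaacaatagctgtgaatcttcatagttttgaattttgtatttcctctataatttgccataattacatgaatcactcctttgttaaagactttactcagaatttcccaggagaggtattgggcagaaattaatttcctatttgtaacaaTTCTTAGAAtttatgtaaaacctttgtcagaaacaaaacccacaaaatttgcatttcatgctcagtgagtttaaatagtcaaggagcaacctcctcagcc

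The element began 93 bases before the start in Csn2 and 100 bases before it in Csn1s1. RefSeq windows, which run from 250 bases before to 50 bases after the start, were at hand for 5 of the 7 genes. Besides these 2, the window of Csn1s2a held the letters TTCTTAGAA from base 21 after the start, and those of Wap and Lalba held no match. Of all 32851 windows of the same length 8.3% held the element, which reads the same on both strands. The TATA box letters TATAAA, searched on both strands, were in 0 of the 5 windows and in 13.6% of all windows. Only these exact letters were counted, so variants of the box may be present. Without a match to TATAAA, no overlap of the 2 motifs was possible in the 5 windows. A match in the letters is a description and was not tested for binding.

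Csn2 encodes beta-casein, a main protein of mouse milk. Its probe set (10531120) had log2 intensities of 9.804, 9.523 and 9.071 in reconSCID replicates 1, 2 and 3. It had 9.873, 10.144, 10.063 and 10.235 in reconRAG1KO replicates 1 to 4. All 3 reconSCID samples lay below all 4 reconRAG1KO samples, although the gap between reconSCID replicate 1 and reconRAG1KO replicate 1 was 0.069, less than the spread within either group. The lowest sample was reconSCID replicate 3 and the highest was reconRAG1KO replicate 4. The gene was bright in every array, at or above percentile 89.4 of all probe sets in reconSCID and 94.6 in reconRAG1KO.

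Csn2 averaged 9.47 ± 0.37 (SD, n = 3) in reconSCID and 10.08 ± 0.15 (SD, n = 4) in reconRAG1KO. The log2 difference was -0.61 ± 0.19 (SE), with a 95% interval from -1.06 to -0.17, which corresponds to a linear change of -34.6% with bounds of -51.9% and -11.0%. The difference did not pass over all probe sets: its limma p was 0.01403 unadjusted and 1 after Benjamini-Hochberg adjustment. The exact permutation test on the group means, two-sided, gave p = 0.02857, the smallest that 35 assignments of 3 and 4 samples allow. By limma 0 of the 6 milk protein genes passed the adjusted threshold, against 0% of 34760 probe sets. At an unadjusted p under 0.05, Csn2 and Csn1s1 were lower, 2 of 6, where 1.13% of all probe sets were lower and 3.33% differed in either direction. The same 2 of 6 had groups that did not overlap. The members were chosen with earlier results of these data known, so these counts are no independent evidence. Among the 779 genes at least as bright as Csn2, 1.54% had groups that did not overlap with reconSCID lower, and 0.899%, Csn2 included, had a difference as low as its own.

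The difference of Csn2 was of similar size in both array sets. Blocked by array set it was -0.63, with an interval from -1.08 to -0.17 and a limma adjusted p of 0.3046. Within the 5 arrays of the larger set it was -0.59, with an interval from -1.26 to 0.08. The 2 arrays that stand apart differed by -0.71 and allow no test. With limma's array weights, which count deviating arrays less, Csn2 differed by -0.34, with an interval from -0.70 to 0.02. Between the sets Csn2 moved little, at 9.88 on average in the 2 arrays and 9.79 in the 5 arrays. Xist, a transcript of the inactive X chromosome, was high in reconSCID replicates 1 and 3 and in reconRAG1KO replicate 2, and Csn2 differed by -0.71 among these arrays and by -0.53 among the arrays low in Xist. Both of these comparisons hold a single array on 1 side.

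**Figure D1:**
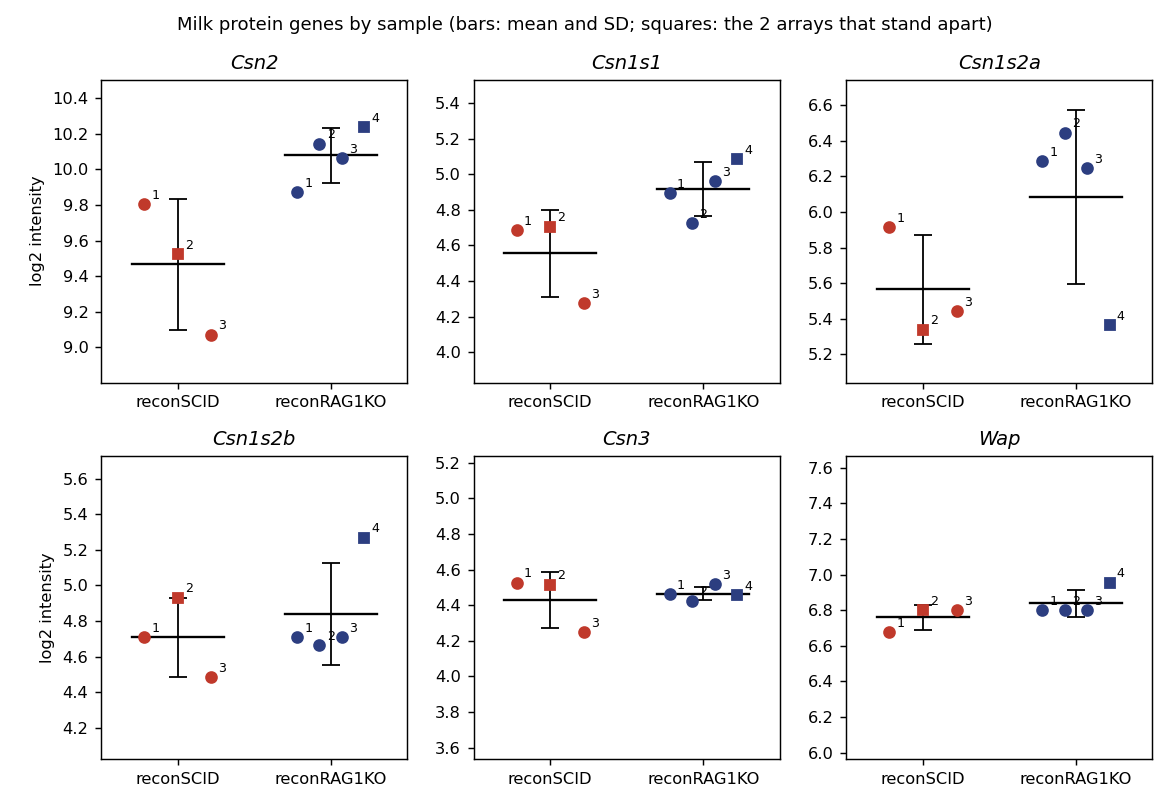
Log2 intensity (vertical axis) of the 6 measured milk protein genes in each sample, numbered by replicate, with reconSCID left of reconRAG1KO; every panel spans the same range of log2 units. Lines with bars are the group mean and SD, and squares mark the 2 arrays that stand apart. The reconSCID points lie below the reconRAG1KO points for Csn2 and Csn1s1, by 0.069 and 0.020 at the nearest pair.

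Csn1s1 encodes alpha-S1-casein and is the next gene to Csn2 on chromosome 5. Its probe set (10522827) measured 4.685, 4.705 and 4.276 in reconSCID and 4.892, 4.724, 4.961 and 5.085 in reconRAG1KO. The groups did not overlap, but the nearest pair was 0.020 apart. The mean was 4.56 ± 0.24 (SD, n = 3) in reconSCID and 4.92 ± 0.15 (SD, n = 4) in reconRAG1KO. The log2 difference was -0.36 ± 0.15 (SE), with an interval from -0.71 to -0.01, a limma p of 0.04313 and an adjusted p of 1, and the exact permutation p was 0.05714. Blocking by array set gave -0.38, as did the 5 arrays and the 2 arrays taken alone. Csn1s1 lay below the lower quartile of all 7 arrays, and no detection calls are at hand to tell such a signal from background. Among the 2441 genes at most as bright, 0.533% had groups that did not overlap with reconSCID lower.

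Csn1s2a and Csn1s2b encode the mouse alpha-S2-caseins. Csn1s2a (probe set 10522845) measured 5.913, 5.339 and 5.443 in reconSCID and 6.284, 6.445, 6.245 and 5.365 in reconRAG1KO. The groups overlapped because reconRAG1KO replicate 4 was as low as the reconSCID samples. Both arrays of the smaller set were the lowest of the 7, and the 2 arrays averaged 0.71 below the 5 arrays, at 5.35 and 6.07.

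The log2 difference of Csn1s2a was -0.52 ± 0.29 (SE), with an interval from -1.20 to 0.16, an adjusted limma p of 1 and an exact permutation p of 0.1714. Within the 5 arrays, where reconSCID replicates 1 and 3 lay below all 3 reconRAG1KO samples, Csn1s2a differed by -0.65 (95% interval from -1.09 to -0.20, adjusted limma p of 0.2271). In that fit 6.63% of all probe sets had an interval wholly below 0. The 2 arrays alone gave -0.03 for Csn1s2a. Blocked by array set the gene had -0.46, with an interval from -0.89 to -0.04 and an adjusted limma p of 0.3731.

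Csn1s2b (probe set 10522858) measured 4.711, 4.931 and 4.485 in reconSCID and 4.711, 4.666, 4.711 and 5.268 in reconRAG1KO. The groups overlapped, and 3 arrays held exactly the same deposited value. Its highest sample was reconRAG1KO replicate 4, one of the 2 arrays that stand apart. Csn1s2b differed by -0.13 (95% interval from -0.58 to 0.32). Without reconRAG1KO replicate 4 the value was 0.01, so no direction can be given for it.

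Csn3, Wap and Lalba have other roles in milk. Csn3 encodes kappa-casein, which coats and stabilises the micelle, and its probe set (10522895) measured 4.526, 4.514 and 4.248 in reconSCID and 4.463, 4.425, 4.518 and 4.455 in reconRAG1KO. The groups overlapped and the difference was -0.04, with an interval from -0.27 to 0.20. Csn3 lay below the lower quartile of all 7 arrays. Wap encodes whey acidic protein, a major whey protein of rodents, and lies on chromosome 11. Its probe set (10384212) measured 6.677, 6.801 and 6.801 in reconSCID and 6.801, 6.801, 6.801 and 6.953 in reconRAG1KO, with exactly the same deposited value in 5 of the 7 arrays. The difference of Wap was -0.08, with an interval from -0.29 to 0.13. Ties can make the spread between samples look smaller than it was. They were common, since 46.2% of all probe sets held at least 1. Lalba encodes alpha-lactalbumin, the regulatory subunit of lactose synthase, and is not analysed here.

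The 6 differences ran from -0.61 to -0.04, with a median of -0.25, where the median over all 19937 genes was -0.01. All 6 were below 0, as were 52.4% of all genes, and for Csn1s2b, Csn3 and Wap the intervals included 0 in each of the 3 fits drawn. Blocked by array set the median of the 6 was -0.27, and it was -0.24 in the 5 arrays and in the 2 arrays alone. Csn2 and Wap lay above the median of every array, and the other 4 genes lay below it in all 7.

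**Figure D2:**
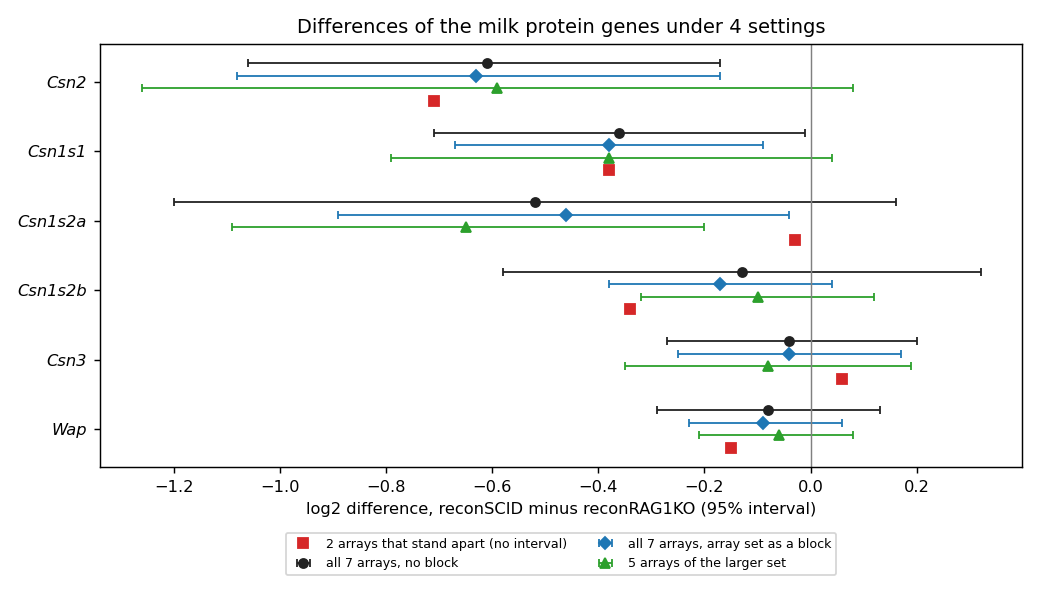
Log2 difference, reconSCID minus reconRAG1KO (horizontal axis), of each measured milk protein gene with its 95% limma interval. Circles are all 7 arrays, diamonds add the array set to the fit, triangles are the 5 arrays of the larger set, and squares are the 2 arrays that stand apart, which have no interval. Csn2 stays between -0.71 and -0.59, whereas Csn1s2a runs from -0.65 in the 5 arrays to -0.03 in the 2 arrays.

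The 5 casein genes form a cluster on chromosome 5, and their order there was taken from RefSeq. Between Csn1s1 and Csn3 and among the 5 protein-coding genes on each side lay 13 protein-coding genes other than caseins, of which 10 were measured. Those 10 differed by -0.15 to 0.08, with a median of -0.08, and 0 passed in either direction. In 0 of the 10 were the groups separate. Of the 10, 8 lay below the lower quartile of all 7 arrays, among them Odam, a secreted protein of enamel and gum epithelium, and Smr3a, a gene of the salivary glands.

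The nearest measured neighbours of Csn1s1 on its outer side were the sulfotransferase genes Sult1e1 and Sult1d1, with differences of -0.14 and -0.07. Prr27, which follows Csn1s2b, differed by 0.03, with an interval from -0.25 to 0.30. The neighbour with the smallest p was BC037156, next to Csn3, at -0.15, with an interval from -0.37 to 0.08. The lowest values in the cluster thus belonged to Csn2, Csn1s2a and Csn1s1, which stand side by side with 2 unmeasured pseudogenes among them. Whether the casein genes differed from their neighbours was not tested.

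**Figure D3:**
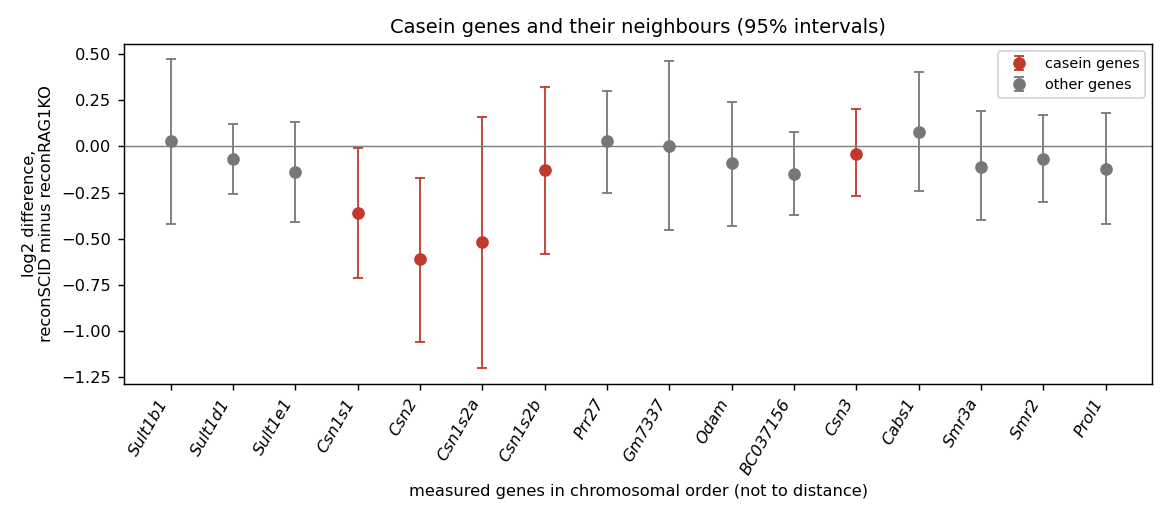
Log2 difference, reconSCID minus reconRAG1KO, with 95% limma intervals (vertical axis), for the measured genes in and around the casein cluster in chromosomal order (horizontal axis, not to distance). Caseins are red and other genes grey. The 3 lowest points are Csn2, Csn1s2a and Csn1s1, at -0.61, -0.52 and -0.36, and the other protein-coding neighbours lie between -0.15 and 0.08.

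Regulators of lactation differed in both directions. Of 18 listed genes 17 were measured, 8 lower and 9 higher in reconSCID, with a median of 0.01, and 0 passed in either direction. The gene without a value was Prlr, the prolactin receptor. Stat5a, the form of STAT5 that the mammary gland depends on most, had 9.999, 9.939 and 9.707 in reconSCID and 10.071, 10.093, 10.183 and 10.255 in reconRAG1KO. The groups did not overlap. Stat5a differed by -0.27 (95% interval from -0.52 to -0.02). Its limma p was 0.03882 unadjusted and 1 after adjustment. Its paralog Stat5b differed by 0.01, with an interval from -0.46 to 0.47. Tnfrsf11a, the receptor RANK, which acts both in mammary alveoli and in the maturation of medullary epithelium, had 9.206, 9.333 and 9.064 in reconSCID and 9.335, 9.450, 9.482 and 9.345 in reconRAG1KO. Its groups did not overlap either, by 0.002 at the nearest pair, and it differed by -0.20, with an interval from -0.44 to 0.03. The glucocorticoid receptor gene Nr3c1 and the transcription factor gene Cebpb differed by 0.22 and -0.11. Elf5, the regulator of the alveolar lineage in the mammary gland, differed by 0.09, with an interval from -0.23 to 0.41.

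Other genes of milk and mammary secretion were also mixed. Of 22 listed genes 20 were measured, 12 lower and 8 higher, with a median of -0.07, and 0 passed in either direction. The smallest p belonged to Muc1, the mucin of the apical membrane and the milk fat globule, at 8.759, 8.910 and 8.077 in reconSCID and 8.880, 8.911, 9.344 and 9.499 in reconRAG1KO. These groups overlapped by a single pair, and the difference was -0.58, with an interval from -1.18 to 0.03. Wfdc18, a small secreted protein with a whey acidic protein domain, differed by -0.54, and Thrsp, a factor of milk fat synthesis, by -0.74, with intervals that included 0. The iron-binding protein gene Ltf, which neutrophils also express, differed by -1.01, with an interval from -2.32 to 0.30. On the other side, the mucin-like gene Glycam1 differed by 0.82 and Mfge8, a protein of the milk fat globule, by 0.38, with intervals from -0.25 to 1.90 and from -0.13 to 0.89.

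Caseins belong by descent to the secretory calcium-binding phosphoproteins, whose other members serve teeth and bone. Of 11 such genes listed, 8 were measured, 6 lower and 2 higher, with a median of -0.07 and 0 passing in either direction. Odam, Enam and Mepe lay below the lower quartile of all 7 arrays. The enamel-organ gene Amtn had the smallest p and measured 5.912, 5.933 and 5.509 in reconSCID and 6.086, 6.387, 6.093 and 5.716 in reconRAG1KO. The groups overlapped through reconRAG1KO replicate 4, and Amtn differed by -0.29, with an interval from -0.73 to 0.16. The bone sialoprotein gene Ibsp and the enamel matrix gene Ambn differed by -0.18 and -0.25.

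Csn2 was then set beside Aire in each sample. Aire measured 10.702, 11.459 and 9.725 in reconSCID and 10.898, 10.895, 11.089 and 11.928 in reconRAG1KO. The groups overlapped for Aire because reconSCID replicate 2 exceeded 3 of the 4 reconRAG1KO samples. Those 3 belong to the other array set. Csn2 in reconSCID replicate 2 lay below all 4. Inside each array set the reconSCID samples lay below the reconRAG1KO samples for both genes. Both genes were lowest in reconSCID replicate 3 and highest in reconRAG1KO replicate 4. Aire averaged 11.69 in the 2 arrays that stand apart and 10.66 in the 5 arrays, a gap of 1.03 that Csn2 did not show. Aire differed by -0.57 between the groups, and its interval ran from -1.63 to 0.49. Blocked by array set Aire differed by -0.67, with an interval from -1.25 to -0.08 and an adjusted limma p of 0.3589. Within the 5 arrays it differed by -0.75, with an interval from -1.60 to 0.10, and within the 2 arrays by -0.47. No correlation is given, because the arrays fall into separate sets of 5 and 2.

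Other antigens known to be induced by Aire also had differences below 0. Of 12 listed genes without Csn2, 11 were measured, and all 11 differences were below 0, with a median of -0.51. Of all genes 52.4% were below 0. Over all probe sets 0 of the 11 passed. In 4 of 11 the groups did not overlap, with reconSCID lower, as in 1.54% of all genes. The list was written with earlier results of these data known, so its count is no independent evidence. The secreted gland gene Mucl2 differed by -0.94, the liver enzyme gene Cyp1a2 by -0.53, the retinoic acid binding protein gene Crabp1 by -0.65 and the hormone gene Sst by -0.51, each with an interval below 0 and an adjusted limma p of 1. These 4 were named for the smallest p of the list, so their range is a selected one. The value of Csn2, -0.61, lies within it, and all 11 genes ran from -1.73 to -0.10. Insulin gene Ins2 differed by -0.10, with an interval from -0.31 to 0.11. S100a8 had the largest difference of the list, -1.73, with an interval from -4.77 to 1.32, and is also a neutrophil marker.

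Markers of cell types, epithelial cells such as the sorted ones among them, varied between samples. In bulk samples fewer cells of a type and less RNA per cell cannot be told apart. Markers of general epithelial cells were lower in reconSCID in 16 of 16 measured genes, with a median of -0.51, and their summed intensity ran from 5910 to 14683 in reconSCID and from 10231 to 17873 in reconRAG1KO. B cell markers were higher in 11 of 11, with a median of 0.99, and summed to 1367 to 4813 in reconSCID and 1150 to 1417 in reconRAG1KO. Neutrophil markers were lower in 11 of 11, with a median of -1.39, and summed to 1234 to 1986 in reconSCID and 1490 to 10088 in reconRAG1KO. None of these 3 lists had a marker below the lower quartile of every array, and 0 of their genes passed the adjusted threshold.

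ReconSCID replicate 3, the lowest sample for Csn2, had the lowest epithelial sum (5910) and the highest B cell sum (4813). In reconSCID replicate 2 the epithelial sum was 14683, above reconRAG1KO replicates 1 to 3 (10231, 10948 and 13199) of the other array set. It was below the 17873 of reconRAG1KO replicate 4, in its own set. In the larger set the sums of reconSCID replicates 1 and 3 (8586 and 5910) were below all 3 reconRAG1KO sums. The B cell sum of reconSCID replicate 2 was 1367, within the reconRAG1KO range, while its Csn2 value was below all reconRAG1KO samples. In the 2 arrays that stand apart the median difference was -0.24 for the epithelial, 0.25 for the B cell and -0.28 for the neutrophil markers, beside -0.71 for Csn2. Within the 5 arrays these medians were -0.67, 1.33 and -1.44, beside -0.59 for Csn2. The part of cell composition in the difference of Csn2 was not tested.

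Over all 7 arrays the other cell types gave medians between -0.18 and 0.22, but some moved more inside an array set. Cortical epithelial markers had -0.18 over 9 genes, thymocyte and T cell markers -0.01 over 11, dendritic cell and macrophage markers 0.05 over 11, and fibroblast and endothelial markers 0.22 over 10. Markers of mature medullary epithelium had a median of -0.03, with 9 of 12 lower. The 4 with the smallest p were Fezf2 (-0.53), Tnfrsf11a (-0.20), Cd40 (-0.38) and Aire (-0.57), each with an interval that included 0. The remaining genes of that list differed by -0.11 to 0.07. Among them are the MHC class II genes H2-Aa, H2-Ab1, H2-Eb1 and Cd74, which dendritic cells and B cells also express. Dendritic cell and macrophage markers summed to 3450 to 14524 in reconSCID and 5622 to 10083 in reconRAG1KO. The median of the list therefore does not describe medullary epithelium alone. Inside the 2 arrays the dendritic cell and macrophage markers had a median of -0.72, about that of Csn2, and inside the 5 arrays one of 0.50. Cortical epithelial markers had -0.39 in the 2 arrays and -0.33 in the 5, and fibroblast and endothelial markers 0.39 and 0.02. The cortical list was uneven in the 2 arrays: Prss16 differed by -2.89 and Ccl25 by -2.21, the others by -0.56 to -0.08. In reconRAG1KO replicate 4, the highest sample for Csn2, Prss16 measured 11.011 and Ccl25 10.131. In no other sample did Prss16 exceed 8.125 or Ccl25 exceed 8.106. For thymocytes and T cells the medians were -0.14 and 0.15, and for mature medullary epithelium -0.17 and 0.05. The groups' summed intensities overlapped for each of these 5 lists.

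**Figure D4:**
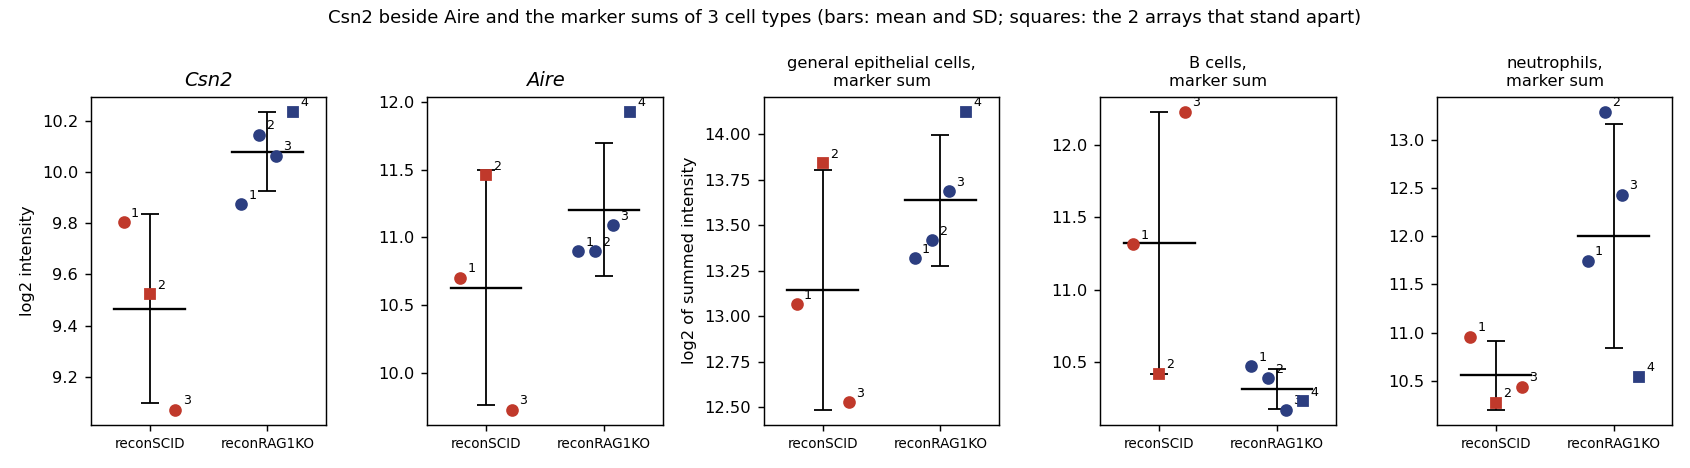
Log2 intensity of Csn2 and Aire, and log2 of the summed intensity of the markers of 3 cell types (vertical axes, each panel on its own range), by sample, with reconSCID left of reconRAG1KO. Lines with bars are the mean and SD, numbers are replicates and squares mark the 2 arrays that stand apart. ReconSCID replicate 2 lies below every reconRAG1KO sample for Csn2 (9.523). For Aire (11.459) and the epithelial sum it lies above reconRAG1KO replicates 1 to 3, which belong to the other array set. In both it lies below reconRAG1KO replicate 4, the other square.

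The genes whose profile over the 7 arrays was nearest to that of Csn2 were Gja4, Il13, Cyp26a1, Chga and Snora73b. Likeness was measured as the mean absolute difference of log2 values after subtracting each gene's own mean, over 9968 other genes at or above the median level. This distance was 0.086 for Gja4, a gap junction gene, 0.091 for the cytokine gene Il13, 0.104 for the retinoic acid hydroxylase gene Cyp26a1, 0.111 for the secretory granule gene Chga and 0.116 for the small nucleolar RNA gene Snora73b, where the median gene was at 0.340. Snora73b has a close paralog, which makes its probe set uncertain.

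Since these 5 were chosen for their likeness, their differences are a description: they ran from -0.59 for Cyp26a1 to -0.43 for Snora73b. Il13, for example, measured 8.150, 8.136 and 7.621 in reconSCID and 8.239, 8.508, 8.367 and 8.663 in reconRAG1KO. Its groups did not overlap, and its lowest and highest samples were those of Csn2. Among the milk protein genes Csn1s1 was nearest to Csn2, at 0.163, and the other 4 lay between 0.272 for Csn1s2b and 0.327 for Csn1s2a. Aire was at 0.385. These distances do not remove the array set, between which Aire shifted by 1.03 and Csn2 by 0.09.

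**Figure D5:**
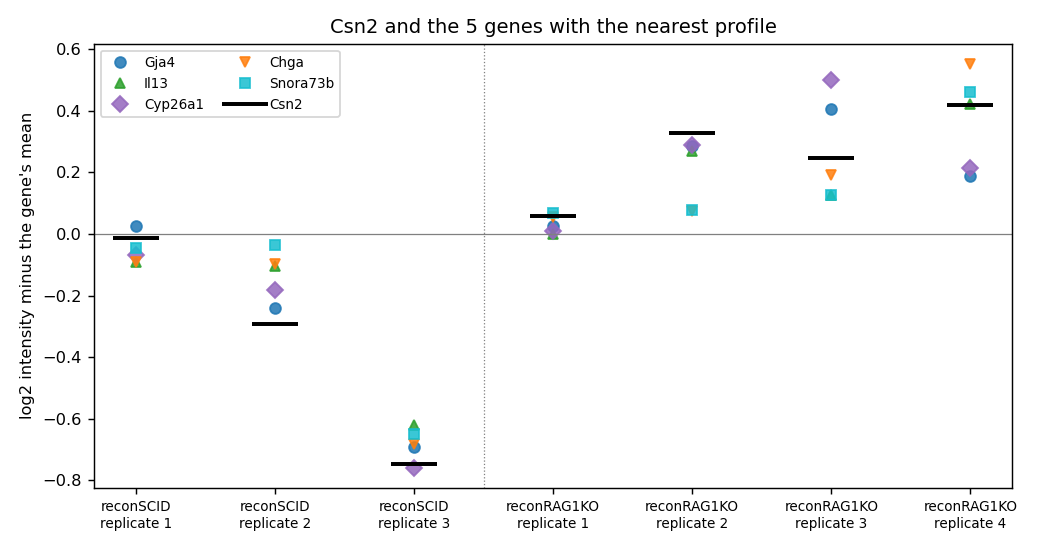
Log2 intensity minus the gene's own mean over the 7 arrays (vertical axis) in each sample (horizontal axis), for Csn2 (black bars) and the 5 genes with the nearest profile. All 6 genes are lowest in reconSCID replicate 3, and the distances to Csn2 run from 0.086 to 0.116.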

How the data were processed

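Medullary epithelial cells of 3 reconSCID and 4 reconRAG1KO samples were measured on Affymetrix arrays, grouped by the sample titles. Each deposited value is a linear intensity of 1 probe set, already summarised and brought to nearly equal levels by the authors, with a method not given in the sources at hand. All 34760 probe sets were kept, 0 values were below 1, and log2 was taken with no pseudocount. Genes were named through the platform annotation where a probe set has 1 symbol (21640 probe sets; 1321 had several and 11799 none), with the brightest probe set per gene.

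Group differences came from limma 3.58.1 (lmFit, eBayes; R 4.3.3), two-sided, adjusted by Benjamini-Hochberg over all probe sets, threshold 0.05. The number of arrays limits the precision. Members and lists were chosen with earlier results of these data known. Named genes are the members, Aire, up to 4 genes per list by smallest p, the casein neighbours and the 5 profiles nearest to Csn2. Outside that rule Stat5b, Elf5, Glycam1, Mfge8, Ins2, S100a8, Enam and Mepe were named after their values were seen. The main fit did not pair samples by replicate number. Same-numbered deviations correlated at 0.472, -0.508 and 0.314. These values cannot settle pairing, because reconSCID replicate 2 and reconRAG1KO replicate 2 lay in different array sets. Alternatives were other normalizations, filters, weights, blocks and left-out samples. The planned protein comparison was not run, as no protein table was used here.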

Additional observations from a re-analysis of the deposited data

Results flagged for a closer look

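Csn1s2b in reconRAG1KO replicate 4 measured 5.268, far from the other 3 reconRAG1KO samples, which lay between 4.666 and 4.711. Wap in the same sample measured 6.953, while the other 3 reconRAG1KO samples all held 6.801. That sample is 1 of the 2 arrays that stand apart. In all, 7 groups of 4 samples were examined, for the 6 milk protein genes and Aire, and chance alone flags about 1 in 20 of untied groups. That rate does not hold with ties, which both flagged groups had. With 3 tied values, as for Wap, any different value in the remaining sample is flagged. The cause was not tested.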

How the results depend on the processing

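Csn2 stayed below 0 in all 26 alternatives, between -0.858 and -0.340, and its interval lay below 0 in 19 of the 25 that give one. Not all alternatives are distinct. With the array set as a block, leaving out either array of the smaller set repeats the fit of the larger set. Csn2 has a single probe set, so averaging the probe sets of a gene leaves its value unchanged. The value nearest 0, -0.340, came with array weights, with an interval from -0.700 to 0.020. Its adjusted limma p ran from 0.2006 to 1, so it was called in none of them. Left-out samples gave -0.781 to -0.415 for Csn2, -0.435 to -0.221 for Csn1s1, -0.759 to -0.399 for Csn1s2a, -0.241 to 0.013 for Csn1s2b, -0.084 to 0.055 for Csn3, -0.100 to -0.038 for Wap and -0.324 to -0.160 for the median of the 6 genes. With the array set as a block as well they gave -0.858 to -0.418, -0.502 to -0.256, -0.647 to -0.257, -0.261 to -0.098, -0.109 to 0.058, -0.135 to -0.060 and -0.382 to -0.196. Without reconSCID replicate 3 Csn1s1 was -0.22 and Csn3 0.055 (0.058 with the array set as a block). Csn1s2b was 0.013 without reconRAG1KO replicate 4 and 0.013 with the replicate number as a block, a fit that drops that sample's contribution and gave -0.561 for Csn2; no call changed. Csn3 was 0.022 with array weights and 0.001 with the Xist level as a block, an alternative chosen after seeing the data. Csn1s2a was -0.026 within the 2 arrays that stand apart. Quantile normalization gave -0.593 for Csn2, with an interval that included 0. Probe sets called lower and higher were 0 and 0 by limma, 10 and 47 with array weights, and 394 and 765 at an unadjusted p under 0.05. The filter on low values left Csn2 and Wap alone. The causes of these changes were not tested. Low signal limits Csn1s1, Csn1s2b and Csn3.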
